A study of Mus musculus with 12 samples.

Results

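A group of 6 plasma cell and B cell genes was followed across 12 subcutaneous Renca tumors: Jchain, Mzb1 and Pou2af1, which mark antibody-secreting cells or their regulation, and Fcrla, Cd79a and Cd79b, which mark B cells. They were taken by name, with no filter on low values, and 5 of the 6 had a row among the 14496 genes of the table; Pou2af1 had none and was not analysed here. The members were chosen by name with the measured differences between IK and SC tumors in this table already known, so the group differences of these genes are given as a description. Renca is a renal carcinoma cell line of BALB/c mice, and all tumors grew under the skin of BALB/C mice and were taken at day 14 after inoculation. Beside 6 of them, called IK here, another tumor grew in the kidney at the same time, and the 6 others, called SC, grew without one. Whole tumors were used, so each library holds RNA of tumor cells and of stroma. The series asks how an immunosuppressive tumor at a distant site relates to the transcriptome of the subcutaneous one. Nothing in the labels ties each tumor to its own mouse, and the p-values below therefore reflect the spread among these 12 samples, which may be partly technical.

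B cells recognise antigen through a membrane immunoglobulin that signals through the paired chains CD79a (Ig-alpha) and CD79b (Ig-beta). When a B cell becomes a plasma cell it secretes its antibody, and the joining chain encoded by Jchain links the units of polymeric IgM and IgA. Mzb1 encodes a protein of the endoplasmic reticulum that aids antibody assembly and secretion, Fcrla an intracellular relative of the Fc receptors in B cells, and Pou2af1 the coactivator OCA-B of the octamer-binding factors. Several of these genes are not restricted to B cells: Mzb1, Cd79b and Fcrla transcripts are also found in plasmacytoid dendritic cells, the interferon-producing dendritic cells.

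The promoters of Jchain, Fcrla and Cd79a are shown because the first pair varied together between tumors and the last did not, as described below. Each is 300 bases of RefSeq on GRCm38.p6, from 250 before to 50 from the start site, on the gene's own strand. They lie at chr5:88527848-88528147 (minus strand) for Jchain, chr1:170927534-170927833 (minus strand) for Fcrla and chr7:24897247-24897546 (plus strand) for Cd79a. Capitals mark the E-box CAGGTG or its complement CACCTG, the letters bound by E proteins such as E2A.
Jchain: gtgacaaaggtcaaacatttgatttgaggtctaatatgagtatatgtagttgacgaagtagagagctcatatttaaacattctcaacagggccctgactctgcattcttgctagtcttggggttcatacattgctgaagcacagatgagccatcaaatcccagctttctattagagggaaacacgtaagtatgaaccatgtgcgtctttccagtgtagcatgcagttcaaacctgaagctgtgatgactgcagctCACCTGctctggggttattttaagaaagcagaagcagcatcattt
Fcrla: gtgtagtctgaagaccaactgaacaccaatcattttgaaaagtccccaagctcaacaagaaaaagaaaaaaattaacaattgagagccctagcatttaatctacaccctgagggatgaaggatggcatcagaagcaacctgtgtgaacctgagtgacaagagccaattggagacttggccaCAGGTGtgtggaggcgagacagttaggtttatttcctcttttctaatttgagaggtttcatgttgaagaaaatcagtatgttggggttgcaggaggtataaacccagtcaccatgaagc
Cd79a: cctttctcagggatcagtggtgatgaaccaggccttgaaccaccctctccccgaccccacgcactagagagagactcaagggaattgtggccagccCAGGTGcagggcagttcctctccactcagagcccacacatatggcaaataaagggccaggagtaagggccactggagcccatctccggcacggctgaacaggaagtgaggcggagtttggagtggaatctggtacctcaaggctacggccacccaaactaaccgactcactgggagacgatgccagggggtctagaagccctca
The E-box stood in all 3 windows, with its first base at 6 in Jchain, -69 in Fcrla and -154 in Cd79a, counted from the start site as 1. It also stood in 20.2% of the 32851 promoters of this length. Of the other motifs searched on both strands, the octamer ATGCAAAT (1.74% of promoters) and the EBF1 motif (TCCC and GGGA with 2 bases between; 0.904%) had no match in these 3 windows. The ETS core GGAAGT (23.8%) had 1 match, at -54 in Cd79a. The 4 motifs do not overlap in these windows, and a match is a description of the letters only.

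Reads recovered from the deposited values ranged from 53312559 to 66142468 per tumor, so the spread between tumors, rather than depth, limited most values. The lowest values below rest on few reads, which are given for the 5 genes and the immunoglobulin genes. They are not given for other low genes, such as Blk and Lta. No gene of the table was called between IK and SC tumors (limma, Benjamini-Hochberg adjusted p under 0.05, 0 of 14496, 0%), while 1677 had an unadjusted p under 0.05 (11.6%). Among the plasma and B cell genes 0 of 5 were called, and 2 of 5, Jchain and Fcrla, had an unadjusted p under 0.05, both lower in IK tumors (5.82% of all genes). The smallest adjusted p among the 5 was 0.431. Mean levels were lower in IK tumors for 4 of the 5 and higher for 1, against 47.5% of all genes lower and 52.5% higher, and the median difference of the 5 was -0.95 log2 units, against 0.01 over all genes. Groups overlapped for all 5 genes; 0.476% of all genes had groups that did not overlap. In whole tumors, fewer cells of a type and less RNA per cell cannot be told apart.

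**Figure D1:**
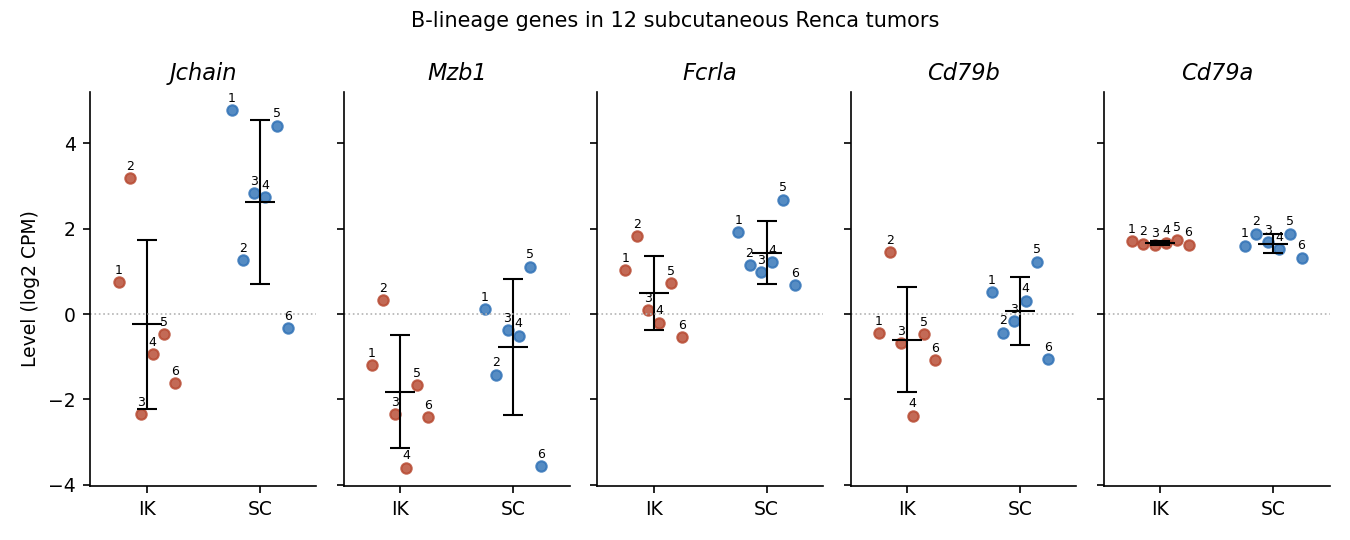
Level of the 5 plasma and B cell genes with a row in each tumor (log2 CPM), IK tumors left and SC tumors right in each panel; numbers are replicates, and the black mark and bar are the mean and SD of 6 tumors. Jchain spans 7.12 log2 units over the 12 tumors and Cd79a 0.56.

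Jchain, the gene of the joining chain, had the widest spread and the largest difference of the 5. Its lowest, median and highest levels were 0.197, 0.621 and 9.05 CPM (counts scaled to the size of the library) in IK tumors, resting on 11, 36 and 518 reads, against 0.797, 6.88 and 27.5 CPM in SC tumors (42, 411.5 and 1555 reads). Replicate 2 of the IK group stood high in its group and replicate 6 of the SC group low: 5 of 6 IK tumors lay at or below 1.67 CPM and 5 of 6 SC tumors at or above 2.41 CPM. The mean was -0.24 ± 1.98 log2 CPM in IK tumors and 2.62 ± 1.92 in SC tumors (SD, n = 6 each), a difference of -2.86 ± 1.00 (SE, 95% interval -5.03 to -0.69), or a 7.26-fold lower geometric mean in IK tumors. That difference did not pass over all genes (limma, adjusted p = 0.431). Leaving out the high IK tumor, replicate 2, gave -3.54 (limma adjusted p = 0.0543), with 0 of the 5 genes called against 1.75% of all genes (1.43% lower in IK tumors). Jchain alone of the 5 passed when tumors were given sample weights in limma (-3.32, adjusted p = 0.0377), a setting that called 4.15% of all genes, 3.15% as lower in IK tumors. Over all 20 alternatives its adjusted p was 0.0377 to 0.759.

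Mzb1, the endoplasmic reticulum helper of antibody secretion, had the lowest median of the 5 in both groups, in CPM and per kilobase. It had 0.0825, 0.256 and 1.25 CPM as the lowest, median and highest level in IK tumors (4, 15.5 and 71 reads), against 0.0843, 0.735 and 2.16 CPM in SC tumors (4, 43.5 and 137 reads). The lowest tumor of each group rested on 4 reads, so counting error adds to these values. The difference was -1.04 ± 0.77 log2 units (SE, 95% interval -2.70 to 0.62; limma adjusted p = 0.557), and 5 of 6 IK tumors lay within the SC range. Leaving out single tumors moved it between -1.60 (without replicate 6 of the SC group) and -0.66 (without replicate 5 of that group), and gave -0.68 without replicate 4 of the IK group. Quantile normalization gave the value nearest to 0, at -0.59. In the annotation used for names, Mzb1 overlaps a longer gene model on the same strand, SPATA24, so reads of the shared part are uncertain.

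Fcrla, the intracellular Fc receptor relative, had 0.686, 1.36 and 3.53 CPM as the lowest, median and highest level in IK tumors, against 1.60, 2.27 and 6.39 CPM in SC tumors. Its lowest tumor held 45 reads. Of the IK tumors, 3 lay below every SC tumor, and there were 2 SC tumors above every IK tumor. The difference was -0.95 ± 0.42 log2 units (SE, 95% interval -1.86 to -0.04; limma adjusted p = 0.431). A processed pseudogene model that has its own row, Gm2962, overlaps Fcrla on the same strand, so reads of the shared part are uncertain here too.

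The signalling chains of the B cell receptor differed in spread. Cd79b (Ig-beta) had 0.192, 0.672 and 2.73 CPM as the lowest, median and highest level in IK tumors (10, 40 and 156 reads), against 0.478, 1.07 and 2.33 CPM in SC tumors (25, 64 and 148 reads). The highest of all 12 tumors was replicate 2 of the IK group, and the difference was -0.66 ± 0.54 log2 units (SE, 95% interval -1.84 to 0.51; limma adjusted p = 0.593). Leaving out that tumor gave -1.07, leaving out IK replicate 4 gave -0.31 and leaving out SC replicate 5 gave -0.43. Quantile normalization gave -0.38 and sample weights -0.99. Cd79a (Ig-alpha) had 3.07, 3.16 and 3.34 CPM in IK tumors, against 2.50, 3.11 and 3.70 CPM in SC tumors, at 133 to 234 reads per tumor. Its means were 1.67 ± 0.05 log2 CPM in IK tumors and 1.65 ± 0.22 in SC tumors (SD, n = 6 each), a difference of 0.02 ± 0.10 (SE, 95% interval -0.19 to 0.24; limma adjusted p = 0.935). The sign of that difference turned without replicate 4 or 6 of the SC group (-0.01 and -0.04). All 6 IK tumors lay within the SC range, the whole spread over 12 tumors being 1.48-fold, against 14.2-fold for Cd79b.

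Per kilobase of exon, with lengths from GENCODE M21, which is on another build than the deposited table, Cd79b stood below its partner in every tumor. The ratio of Cd79b to Cd79a levels per kilobase was 0.0616, 0.213 and 0.888 as the lowest, median and highest in IK tumors, against 0.195, 0.363 and 0.645 in SC tumors. The ratio of Mzb1 to Jchain levels per kilobase was 0.286, 0.724 and 2.07 in IK tumors, against 0.0819, 0.220 and 0.321 in SC tumors, so these ranges overlapped. These ratios follow from the levels above and were not tested.

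Spread between tumors of the same group separated Cd79a from the rest. The SD around the group means was 1.95 log2 units for Jchain, 1.47 for Mzb1, 1.04 for Cd79b and 0.81 for Fcrla, above that of 99.8%, 99.5%, 98.6% and 97.5% of all genes. For Cd79a it was 0.16, above 64.4% of genes, and the median over all genes was 0.12. Low genes spread more in this table, and Cd79b and Mzb1 reached 1 CPM in 4 and 3 of the 12 tumors. With a filter asking for 1 CPM in at least 6 tumors, 3 of the 5 genes would have remained: Jchain, Fcrla and Cd79a.

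**Figure D2:**
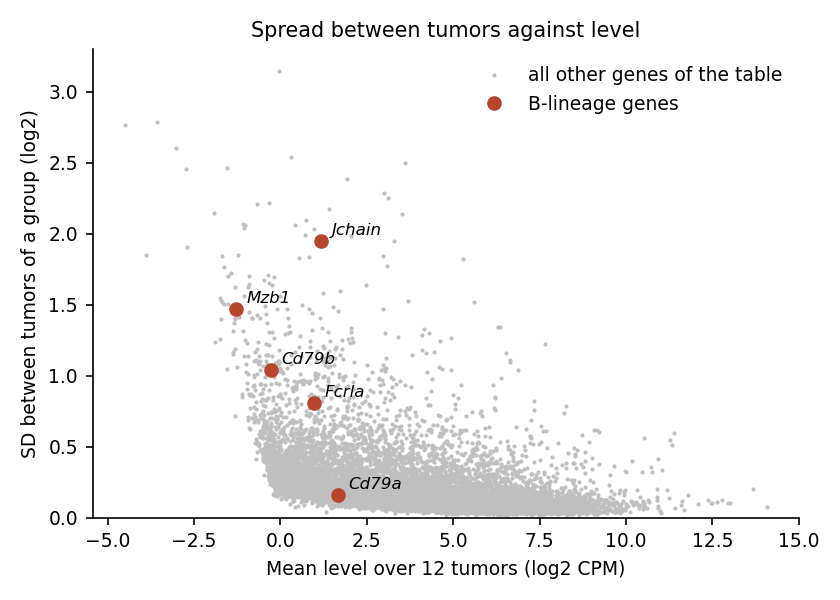
SD between tumors of the same group (log2) against the mean level over 12 tumors (log2 CPM) for every gene of the table, with the 5 plasma and B cell genes in red. Cd79a, at 0.16, sits in the dense band of genes; Jchain, at 1.95, sits near the top.

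Variation within groups was shared by 4 of the 5, which were chosen with earlier results of these data known. After each group's mean was subtracted, Pearson's r over the 12 tumors was 0.80 to 0.92 for the 6 pairs among Jchain, Mzb1, Fcrla and Cd79b (permutation within groups, two-sided, 10 pairs tested, Benjamini-Hochberg adjusted p from 0.0004 to 0.0069). Spearman's rho of these pairs was 0.82 to 0.94 (permutation, largest adjusted p = 0.00497). Cd79b and Mzb1 were closest (r = 0.92, rho = 0.94). The 6 pairs had r of 0.75 to 0.98 within IK tumors alone and of 0.82 to 0.95 within SC tumors alone (n = 6 each). Without the 2 tumors farthest from the median of the first gene of each pair, r was 0.61 (Jchain and Cd79b) to 0.94 (Cd79b and Mzb1). For Jchain and Cd79b, leaving out the IK tumor of replicate 2 alone gave r of 0.66 (permutation, adjusted p = 0.0601). Both genes of a pair come from the same library and share its depth and cell mixture.

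Cd79a did not share this pattern detectably. Its r with the other 4 genes was 0.28 to 0.50 (permutation, smallest adjusted p = 0.194) and its rho 0.03 to 0.34 (permutation, smallest adjusted p = 0.373). Without the 2 farthest tumors r was 0.12 to 0.38. These values turned negative after quantile normalization, at -0.70 to -0.38, with an adjusted p of 0.0316 for Cd79a and Cd79b (permutation), so their sign depends on the scaling.

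**Figure D3:**
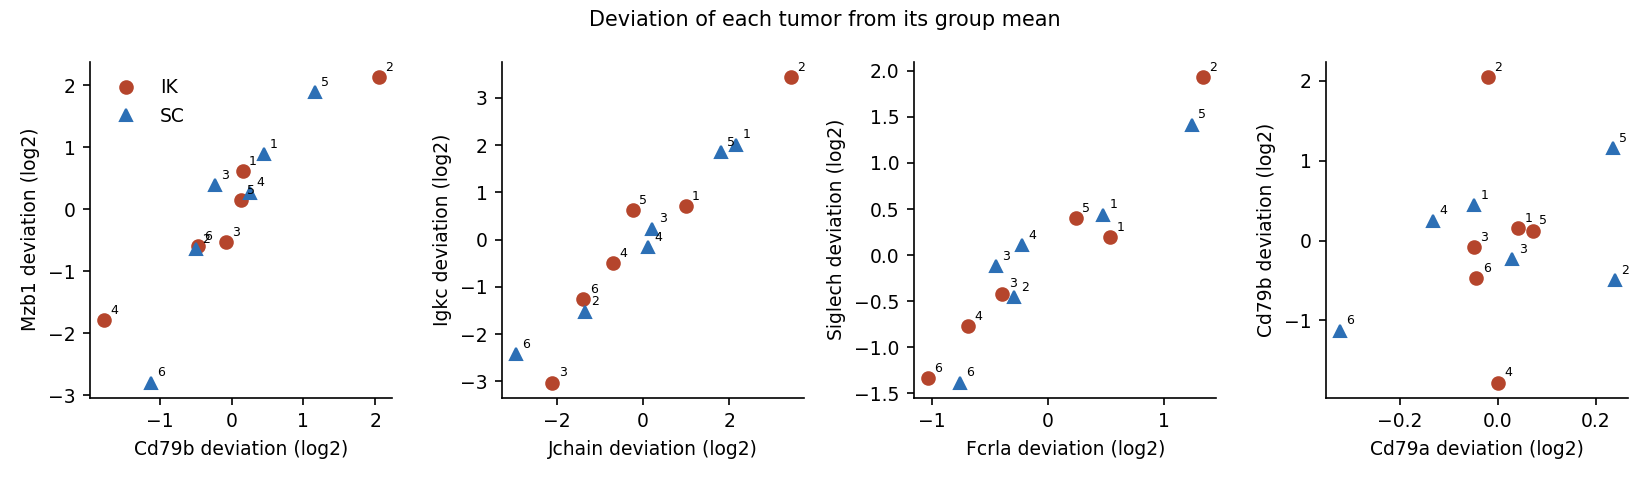
Deviation of each tumor from its group mean (log2), for Cd79b and Mzb1, Jchain and Igkc, Fcrla and Siglech, and Cd79a and Cd79b; red circles are IK tumors, blue triangles SC tumors, and numbers are replicates. The first 3 panels follow a line (r of 0.92, 0.97 and 0.96), and the last does not (r = 0.28).

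The genes whose within-group pattern was most like that of each gene, by Pearson's r over the 12 tumors, differed between the 5. They are a description over tumors that share the same libraries. For Jchain they were Tmem45a (0.98), the kappa light chain gene Igkc (0.97), the Notch coactivator gene Maml2 (0.96), Rtl8c (0.95) and the Wnt antagonist gene Sfrp1 (0.95). For Fcrla they were the calcium channel gene Cacna1e (0.97), Tbc1d8 (0.97), Cand2 (0.97), the kallikrein gene Klk1 (0.96) and Siglech (0.96), a surface lectin of plasmacytoid dendritic cells; Klk1 and Siglech both belong to the marker list of that cell type. For Cd79b they were Havcr1 (0.96), BC035044 (0.96), the collagen receptor gene Lair1 (0.96), the Notch glucosyltransferase gene Poglut1 (0.96) and Spib (0.96), an ETS factor of B cells and plasmacytoid dendritic cells. For Mzb1 they were the dipeptidase gene Dpep1 (0.99), the sialyltransferase gene St8sia6 (0.98), Itih5 (0.97), Mreg (0.97) and Fxyd1 (0.97), a regulator of the sodium pump in muscle and other tissues. For Cd79a, whose own spread was small, they were the adenylate kinase gene Ak1 (0.91), Heg1 (0.84), the sarcoplasmic reticulum calcium-binding gene Hrc (0.84), Fbxw5 (0.83) and Zdhhc24 (0.83).

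Genes of antibody chains, which plasma cells secrete and B cells carry on the membrane, were examined beside these genes. Their reads do not tell the secreted from the membrane form. Of 14 immunoglobulin constant region genes listed, 5 had a row, all 5 had lower means in IK tumors, and 0 were called (limma, 0% of all genes called), with a median difference of -2.39 log2 units, or -1.45 after quantile normalization. With sample weights 3 of the 5 were called, Igkc, Ighm and Ighg1 (limma adjusted p = 0.0410, 0.0351 and 0.0351). That setting called 4.15% of all genes, 3.15% as lower in IK tumors. Igkc, the kappa light chain, had 0.180, 1.65 and 15.9 CPM as the lowest, median and highest level in IK tumors (10, 97.5 and 911 reads), against 2.20, 12.2 and 47.4 CPM in SC tumors (117, 726 and 2700 reads). Of the IK tumors, 3 lay below every SC tumor, and the difference was -3.01 ± 1.02 (SE; limma adjusted p = 0.431), close in size to that of Jchain. Ighm, the mu heavy chain of IgM and of the naive B cell receptor, was at 11.8, 19.9 and 61.9 CPM in IK tumors, against 22.3, 46.8 and 67.5 CPM in SC tumors, a difference of -0.997 ± 0.364 (SE; limma adjusted p = 0.431). It spanned 5.72-fold over the 12 tumors, against 264-fold for Igkc. In replicate 3 of the IK group Ighm had 1119 reads, where Igkc had 10 and Jchain 11. Per kilobase of exon the ratio of Igkc to Ighm was 0.0333, 0.289 and 0.911 as the lowest, median and highest in IK tumors, against 0.324, 0.968 and 3.44 in SC tumors.

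Heavy chains of switched antibodies were at few reads. Ighg1 (IgG1) had 0 reads in 3 IK tumors and at most 23 in that group, against 2 to 467 reads in SC tumors with a median of 48.5. Ighg2b had 0, 10.5 and 137 reads as the lowest, median and highest in IK tumors, against 10, 48 and 204 in SC tumors. Ighg2c had 0, 4 and 42 reads in IK tumors, against 3, 15.5 and 284 in SC tumors. BALB/c mice carry the Ighg2a form in place of the Ighg2c form, so it is not known which transcripts gave the reads of that row. None was called with equal weights for all tumors (limma adjusted p = 0.431 for Ighg1, 0.463 for Ighg2b and 0.485 for Ighg2c). Ighg1 was called with sample weights (limma adjusted p = 0.0351) and was at an adjusted p of 0.0506 with IK replicate 2 left out. How reads shared between these related genes were counted is not known. Their order over tumors was like that of Jchain within groups, with r of 0.87 for Ighg1, 0.84 for Ighg2b and 0.85 for Ighg2c, beside 0.83 for Ighm and 0.97 for Igkc. Cd79a had r of 0.13 to 0.50 with the same 5 genes.

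**Figure D4:**
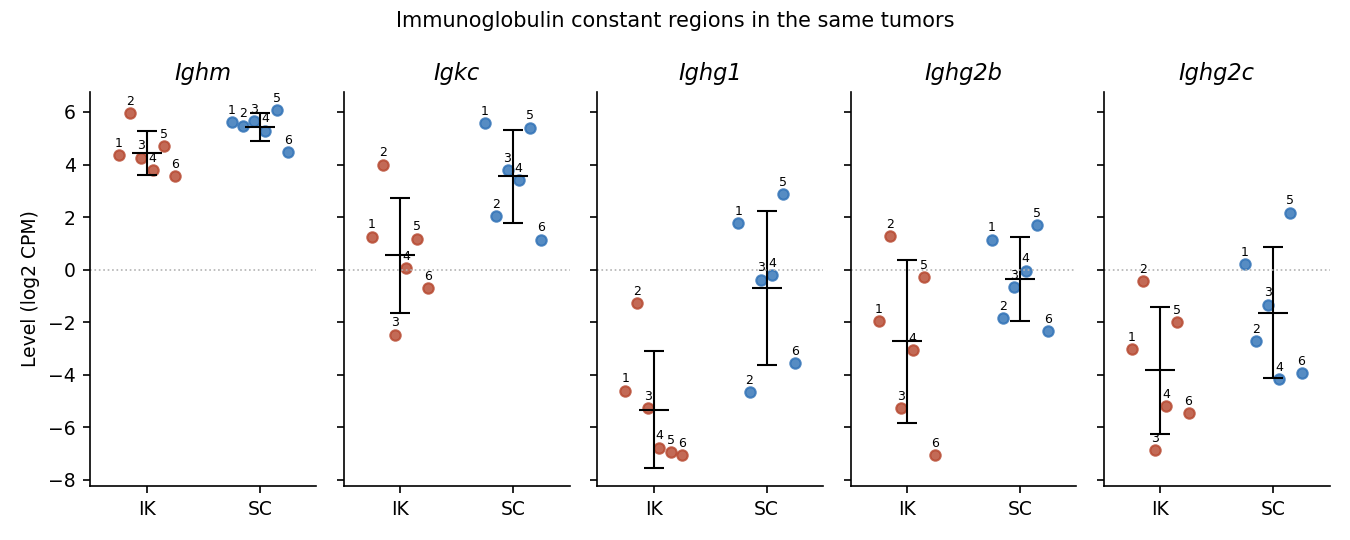
Level of 5 immunoglobulin constant region genes in each tumor (log2 CPM), IK tumors left and SC tumors right in each panel, with replicate numbers and the mean and SD of 6 tumors. Igkc lies between 0.180 and 15.9 CPM in IK tumors and between 2.20 and 47.4 CPM in SC tumors; the lowest points of the Ighg panels are tumors with 0 reads.

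The wider B cell program was only partly represented. Of 20 B cell surface and signalling genes 12 had a row, with 9 lower and 3 higher in IK tumors and 0 called (limma), at a median of -0.13 log2 units, or -0.07 with SC replicate 5 left out. The defining B cell marker Ms4a1 (CD20) had no row in a table that holds genes reaching 1 CPM in at least 2 tumors, and neither did the plasma cell receptor gene Tnfrsf17 (BCMA) or Derl3. The B cell label of the 6 genes is therefore not backed by that marker, while Pax5, the B cell identity factor, was at 2.27 ± 0.22 log2 CPM in IK tumors and 2.26 ± 0.30 in SC tumors (SD, n = 6 each). Within groups Pax5 had r of -0.51 to -0.01 with the 5 genes. The other listed B cell markers with a row, beside the members, went the other way. Mean r with the 5 genes was 0.66 for Cd22 and 0.65 for Blk, against -0.33 for Pax5. The Toll-like receptor relative Cd180 was the lowest of the surface list at -0.69 ± 0.26, and Cd72, an inhibitory B cell coreceptor, had the highest mean r with the 5 genes (0.82; difference -0.27 ± 0.21). Blk, a Src family kinase of B cells, lay in the other direction, at -0.58 ± 0.74 log2 CPM in IK tumors and -2.05 ± 0.69 in SC tumors (SD, n = 6 each; difference 1.47 ± 0.40, SE; limma adjusted p = 0.431).

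The marker lists for the same cells share genes with the 5. Plasma cell markers had 7 of 10 rows, 6 lower and 1 higher in IK tumors, with a median of -0.997, which was -0.66 with SC replicate 5 left out, -0.64 with the filter and -0.59 after quantile normalization. That list holds Jchain and Mzb1 and the immunoglobulin genes Igkc and Ighm. The 1 marker higher in IK tumors was Sdc1, at a mean of 8.78 log2 CPM against 8.71 in SC tumors. Its difference was 0.07 ± 0.06 (SE), and its mean within-group r with the 5 genes was -0.71. B cell markers had 6 of 8 rows, 3 lower and 3 higher, with a median of -0.15 (-0.04 after quantile normalization), and 3 of the 6 were Cd79a, Cd79b and Fcrla.

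All 17 listed transcription factors of B and plasma cells had a row, 14 lower and 3 higher in IK tumors, 0 called (limma), with a median of -0.29 log2 units. Ikzf3 (Aiolos) was the lowest at -1.31 ± 0.62, and Bcl11a, shared by B cells and plasmacytoid dendritic cells, had the highest mean r with the 5 genes (0.83; difference -0.92 ± 0.45). Prdm1, which encodes the plasma cell regulator Blimp-1, was at -0.29 ± 0.13, and Xbp1, the secretory stress factor that many cell types express, was at -0.01 ± 0.03 (SE for each). At the other end stood Tcf3, the gene of E2A, at 0.05 ± 0.07. Plasma cell surface and secretion genes were measured in 16 of 18 cases, 10 lower and 6 higher in IK tumors, 0 called (limma), with a median of -0.06. That median was -0.11 with IK replicate 2 or SC replicate 6 left out, -0.10 with SC replicate 2 left out or with sample weights, -0.02 with SC replicate 3 left out and -0.01 after quantile normalization. Slamf7, an adhesion receptor of plasma cells and cytotoxic lymphocytes, was at -1.38 ± 0.47 and had the highest mean r of that list (0.80), while Eaf2, an elongation factor partner, was at 0.10 ± 0.05.

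Genes for antibody transport and Fc handling had 4 of 5 rows, all lower in IK tumors, 0 called (limma), at a median of -0.10; they ran from the cytosolic antibody receptor Trim21 (-0.48 ± 0.20) to the inhibitory Fc receptor Fcgr2b (-0.07 ± 0.08). Ligands and receptors of the B cell niche had 11 of 15 rows, 8 lower and 3 higher, 0 called (limma), with a median of -0.44, or -0.18 without replicate 5 of the SC group and -0.26 without replicate 4 of the IK group or after quantile normalization. The lymphotoxin genes Lta (-1.75 ± 0.56) and Ltb (-0.90 ± 0.37) and the B cell attractant Cxcl13 (-1.53 ± 0.65) lay lower in IK tumors, and the receptor Cxcr4 lay at 0.11 ± 0.16 (SE for each). Lta was low, with means of -2.43 log2 CPM in IK tumors and -0.68 in SC tumors. Without replicate 1 of the IK group Cxcr4 turned to -0.02.

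**Figure D5:**
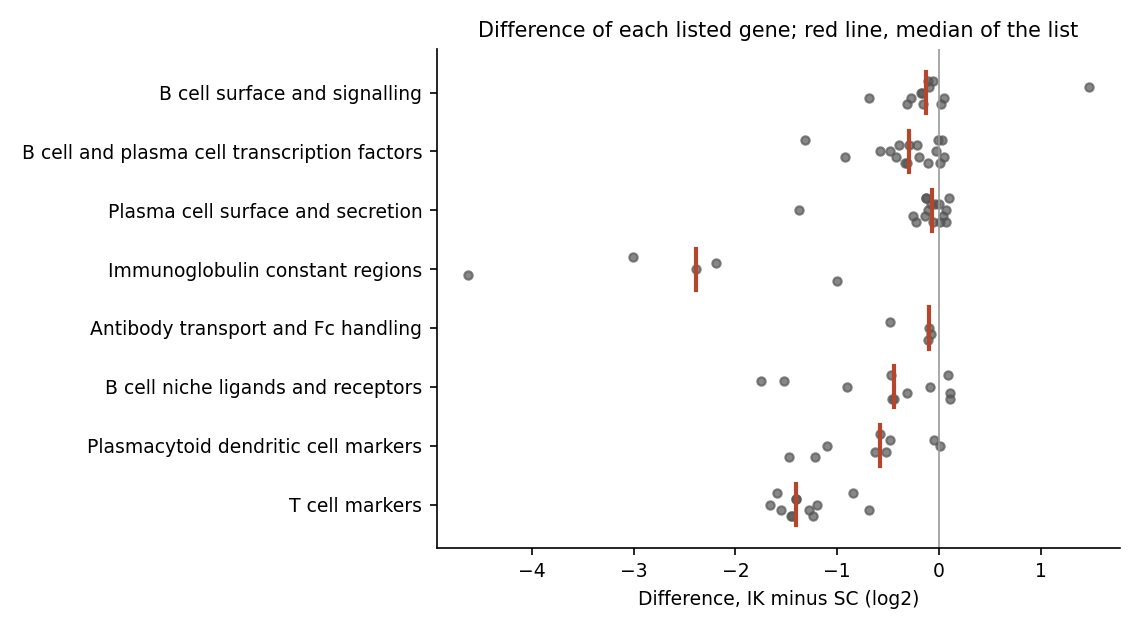
Difference of each listed gene, IK minus SC (log2), 1 point per gene, with a red line at the median of the list. The immunoglobulin median lies at -2.39, the T cell marker median at -1.40 and the other 5 B cell related lists drawn between -0.44 and -0.06; the 2 marker lists that share genes with the 5 are not drawn.

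Many markers of other cell types moved with these genes over the tumors, and their part in the differences was not tested. Plasmacytoid dendritic cell markers had 9 of 10 rows, with none at 0 reads in all tumors, and 8 of the 9 were lower in IK tumors, at a median of -0.57. Their summed level was 260.0 to 558 CPM in IK tumors and 299.6 to 640.3 CPM in SC tumors. That sum rests mainly on Bst2, Tcf4, Irf8 and Runx2, with SC means of 7.633, 6.205, 6.196 and 5.586 log2 CPM. Siglech was the next highest there, at 3.527, so the sum was not taken as a level of that cell type. Differences were -0.63 for Bst2 and -0.57 for Irf8, but -0.05 for Tcf4 and 0.01 for Runx2. The mean within-group r with the 5 genes was 0.04 for Runx2 and 0.67 to 0.83 for the other markers. Siglech alone was at 1.97 to 19.0 CPM in IK tumors and 4.41 to 30.8 CPM in SC tumors, and its within-group r was 0.96 with Fcrla, 0.91 with Mzb1, 0.90 with Cd79b, 0.89 with Jchain and 0.43 with Cd79a. T cell markers had 12 of 12 rows, all lower in IK tumors, with a median of -1.40 and a summed level of 24.0 to 144 CPM in IK tumors and 34.8 to 153 CPM in SC tumors. The NK and cytotoxic markers had 8 of 8 rows, all lower in IK tumors with a median of -1.87, and a summed level of 6.95 to 77.8 CPM in IK tumors and 14.2 to 107 CPM in SC tumors. Their mean within-group r with the 5 genes was 0.74 to 0.81. Conventional dendritic cell markers had 6 of 6 rows, all lower in IK tumors with a median of -0.57, and a mean r of 0.70 to 0.83. Macrophage markers had 8 of 8 rows, 7 lower and 1 higher, with a median of -0.14 (-0.22 to -0.08 with 1 tumor left out) and a mean r of -0.29 to 0.72. Neutrophil markers had 4 of 5 rows, all lower, with a median of -0.27 (-0.42 to -0.16 with 1 tumor left out) and a mean r of 0.56 to 0.80. Fat cell markers had 3 of 4 rows, all lower in IK tumors, with a median of -1.50 (-0.92 after quantile normalization) and a summed level of 0.651 to 4.196 CPM in IK tumors and 2.58 to 12.1 CPM in SC tumors. The T cell receptor chain gene Cd3e had r of 0.92 with Jchain, 0.92 with Mzb1, 0.85 with Cd79b, 0.84 with Fcrla and 0.41 with Cd79a. Col1a1, a fibroblast collagen, had r of 0.80 to 0.86 with the 4 genes other than Cd79a. The skeletal muscle actin gene Acta1 was closer to Cd79a (0.74) and Mzb1 (0.74) than to Fcrla (0.46). Lymph node stroma and high endothelium markers had 1 of 7 rows, Cxcl13, while Glycam1, Madcam1, Chst4, Ccl21a, Ccl19 and Cr2 had none. Krt8, a keratin of the tumor cells, had r of -0.60 to -0.43 with the 4 genes and -0.27 with Cd79a. The listed tumor cell markers were not alike in this. Their mean r with the 5 genes was -0.49 for Krt8, -0.48 for Cdh16, -0.30 for Pax8 and -0.21 for Epcam, but 0.27 for Krt18.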

How the data were processed

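RNA was measured in 12 whole subcutaneous tumors, 6 per group. Tools listed in the submitters' processing notes are TopHat 1.4.1, CASAVA 1.8.2, limma and HTSeq, with build mm9; settings, strand handling and annotation release are not given in the sources used here, so reads of overlapping or antisense genes may be mixed. The authors deposited 1 table of log2 values of 14496 Ensembl genes, of the form log2 CPM with 0.5 reads added. In every column 100% of values gave whole reads within 0.001 of a read. Symbols came from GENCODE M21 by identifier (14004 matched, 492 without). Groups followed the sample titles.

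All rows were fitted with limma 3.58.1 in R 4.3.3 (two-sided, variance trend, Benjamini-Hochberg, threshold 0.05), on the deposited log2 values without further scaling or filter; the fit was tested on simulated data. Correlations used 100000 permutations within groups, in Python 3.11.15. Genes were named by a rule: all members, the 5 genes most like each, and the extremes and the most alike gene of each list. For the cell type marker lists only some of these are given. Other genes given were chosen after their values were seen: Igkc, the Ighg genes, Pax5, Cd22, Prdm1, Xbp1, Siglech, Bst2, Tcf4, Cd3e, Col1a1, Acta1, Krt8, Cdh16 and Cxcl13. The members and lists were chosen with earlier results of these data known. Intervals are 95% and from limma. All 30 within-group pairs of tumors differed by more than sampling noise, with chi-square values of 13.2 to 164 for each degree of freedom. Alternatives were other filters, scalings, variance models and weights, voom on the recovered reads, a replicate block and leaving out each tumor.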

Additional observations from a re-analysis of the deposited data

Results flagged for a closer look

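Over 54 of the genes examined, each group of 6 tumors was searched for 1 tumor whose gap to the nearest other exceeded 0.625 of the group's range (Dixon's test at 95%). Of 108 such sets 11 stood out, where chance gives about 1 in 20, and sets from the same tumor are not independent. None of the 5 plasma and B cell genes was among them. The IK tumor of replicate 2 did so in 9: high in Cd2 (2.90 log2 CPM, next 0.65), Lck (4.79, next 3.45), Cd72 (5.73, next 4.93), Cxcl13 (3.90, next 1.24), Ltb (4.37, next 2.92), Irf8 (6.64, next 5.68), Trim21 (5.12, next 4.198) and Fcgr2b (8.16, next 7.95), and low in Tcf3 (6.58, next 6.83). The same tumor was the highest IK tumor for Jchain, Mzb1, Fcrla and Cd79b. Fbxw5 was high in replicate 5 of the IK group (5.80, next 5.73). Cxcr4 was high in replicate 5 of the SC group (4.14, next 3.71).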

How the results depend on the processing

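The differences of Jchain and Fcrla lay below 0 under all 20 alternatives and those of Cd79b and Mzb1 under all 19 that could be computed, since the filter removes both genes. Cd79a ranged from -0.043 to 0.069 with 1 tumor left out and was below 0 without replicate 4 or 6 of the SC group; it was 0.14 after quantile normalization. With 1 tumor left out Jchain ranged from -3.54 to -2.43, Fcrla from -1.22 to -0.70, Cd79b from -1.07 to -0.31 and Mzb1 from -1.60 to -0.66. Over all genes 0 were called, but 2 without a variance trend and 602 with sample weights (145 higher and 457 lower in IK tumors), where 1 of the 5 genes, Jchain, was called (-3.32). Of single genes other than the 5, the alternatives covered only the immunoglobulin rows and the extremes and most alike gene of each list, cell type marker lists excepted. The list genes among them were thus picked by difference or likeness. Of these, 11 were called with sample weights: Igkc, Ighm, Ighg1, Ighv3-8, Ighj4, Cd180, Ikzf3, Lta, Ltb, Slamf7 and Trim21 (limma adjusted p of 0.0351 to 0.0424), beside 4.15% of all genes. Leaving out 1 tumor gave 0 to 254 calls, the 254 (1.75%, 47 higher and 207 lower) without replicate 2 of the IK group, with 0 of the 5 genes among them. Of the same single genes, Ighm (-1.30), Ighv3-8 (-5.45), Slamf7 (-1.76) and Trim21 (-0.66) were called there. The cause was not tested. Of the 10 pairs, 6 were called, or 5 to 6 with 1 tumor left out.

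Nothing in the labels says that replicate numbers pair the tumors. Deviations of equal numbers correlated at -0.27 to 0.43, and 1 of 6 IK tumors correlated best with its own number. Whether the numbers mark a shared batch cannot be told from these values. With a replicate block the SE went from 1.00 to 0.89 for Jchain, 0.42 to 0.30 for Fcrla and 0.77 to 0.695 for Mzb1. It went from 0.54 to 0.53 for Cd79b and from 0.099 to 0.098 for Cd79a. With a replicate block 0 genes and 0 of the 5 were called, with unchanged differences, and 1 of 10 pairs was called, from 6 pairwise differences in place of 12 tumors. Correlations of Cd79a changed sign there with Jchain (-0.18), Fcrla (-0.44), Cd79b (-0.39) and Mzb1 (-0.023), and after quantile normalization (-0.50, -0.38, -0.70 and -0.59); with 1 tumor left out that of Jchain and Cd79a ranged from -0.048 (without replicate 6 of the SC group) to 0.566. Cxcr4 lay between -0.024 (IK replicate 1 left out) and 0.202. Quantile normalization also moved Blk (2.67), Eaf2 (0.20), Lta (-0.99), Ighg2b (-1.45) and Ighg2c (-1.15) by over 1.5 times. Leaving out 1 tumor did so for Ighg2b (-1.52 without IK replicate 6), Ighg2c (-1.44 without SC replicate 5), Cd72 (-0.45 without IK replicate 2, -0.17 without SC replicate 5), Fcgr2b (-0.13 to -0.02) and Tcf3 (0.02 to 0.10). Depth limits Mzb1, at 4 reads in its lowest tumors, and the Ighg genes.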

Other observations

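Rows of immunoglobulin variable or joining segments numbered 2, Ighv3-8 and Ighj4, named after their values were seen. Ighv3-8, a heavy chain variable segment, had 0 reads in 5 IK tumors and 5 reads in the other, against 2 to 79 reads in SC tumors with a median of 42.5. With equal weights for all tumors it was not called (limma, adjusted p = 0.431), and it was called with sample weights (adjusted p = 0.0351) and with IK replicate 2 left out (adjusted p = 0.0313). Ighj4, a joining segment, had 1 to 30 reads in IK tumors and a median of 2.5, against a median of 30.5 and at most 100 in SC tumors. Such a row counts reads of any rearrangement that uses the segment.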
